A study of Mus musculus with 3 samples.

Results

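Arg1, Retnla, Chil3, Mrc1, Cd163, Mgl2, Cd209f, Fcna, Cbr2 and Folr2 are 10 mouse genes that are used as labels of alternatively activated macrophages or of macrophages that reside in tissue. They were chosen as a list of names, with earlier results of these data known, and make up 10 of the 27998 genes counted in each library. The study profiled single cells of dorsal skin from male C57BL/6 mice aged 7 to 9 weeks, wounded while their hair follicles were in telogen, the resting stage. Each flank of the back received a wound through the whole skin, 1.0 cm long and 0.5 cm wide, and the 3 groups were non-lesional dorsal skin, the wound bed at day 2 after wounding and the wound bed at day 7. Cells were freed with the enzymes collagenase D and DNase1 and captured in droplets for 3′ sequencing. There was 1 library per group and the labels do not say how many mice each library holds, so there was no test between groups. Intervals below cover counting error only. No genotype or agent other than the wound sets the groups apart in the labels.

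Macrophages take up, digest and present what is in a tissue, and they differ by origin and by signal. Monocytes that enter a wound respond to microbial and damage signals, whereas the cytokines IL4 and IL13, acting through the transcription factor STAT6, bring about the state called alternative activation, for which Arg1, Retnla, Chil3, Mrc1 and Mgl2 are textbook labels in the mouse. Macrophages that live in unwounded dermis, many of them beside vessels, are recognised by scavenger and lectin receptors such as Cd163 and Folr2. In this account Arg1, Retnla and Chil3 are the enzyme and secreted proteins of alternative activation, Mrc1 and Mgl2 its lectin receptors, and Cd163, Cd209f, Fcna, Cbr2 and Folr2 the resident genes.

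Promoters are shown for the 3 members whose windows hold a motif of MAF, because this transcription factor is a known regulator in macrophages. Across 26 sums of a class in a library, the levels of these genes had Pearson's r of 0.97 (Retnla and Fcna), 0.92 (Fcna and Cbr2) and 0.85 (Retnla and Cbr2). Cd209f, whose window lacks the motif, had r of 0.96 with Retnla, 0.97 with Fcna and 0.90 with Cbr2. Each of these genes stood far higher in non-lesional macrophage-like cells than in any other sum, so these r rest mostly on that sum. A part of MAF in these levels was not tested. The windows come from RefSeq on GRCm38.p6, where 9 of the 10 members had an entry, and run from 250 bases before the RefSeq start to 50 after it. They are Retnla at chr16:48842359-48842658 on the + strand, Fcna at chr2:25627925-25628224 on the - strand and Cbr2 at chr11:120731972-120732271 on the - strand, each printed 5′ to 3′ along the gene. Capitals mark the MAF motif TGCTGAC or its reverse complement, searched on both strands.
Retnla: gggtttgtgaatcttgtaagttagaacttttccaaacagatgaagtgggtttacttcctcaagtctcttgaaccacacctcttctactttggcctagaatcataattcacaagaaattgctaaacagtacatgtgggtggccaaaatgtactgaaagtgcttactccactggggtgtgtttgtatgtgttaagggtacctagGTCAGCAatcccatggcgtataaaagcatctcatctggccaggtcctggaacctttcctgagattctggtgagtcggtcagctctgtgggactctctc
Fcna: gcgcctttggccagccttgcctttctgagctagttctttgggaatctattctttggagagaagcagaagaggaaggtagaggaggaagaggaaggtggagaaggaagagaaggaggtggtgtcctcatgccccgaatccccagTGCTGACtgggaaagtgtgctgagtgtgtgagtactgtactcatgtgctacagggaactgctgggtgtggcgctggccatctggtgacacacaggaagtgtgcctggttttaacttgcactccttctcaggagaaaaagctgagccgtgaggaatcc
Cbr2: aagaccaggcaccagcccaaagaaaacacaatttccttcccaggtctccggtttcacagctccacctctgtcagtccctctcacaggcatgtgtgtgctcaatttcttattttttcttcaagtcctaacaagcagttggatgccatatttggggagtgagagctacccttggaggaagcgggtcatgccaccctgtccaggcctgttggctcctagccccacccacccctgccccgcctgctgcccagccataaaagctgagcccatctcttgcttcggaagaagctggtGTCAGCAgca
Counted from the RefSeq start, the MAF motif began at -48 in Retnla and at -107 in Fcna, whereas in Cbr2 it lay after the start, at 41. GENCODE, the source of the gene positions printed below, sets the starts of these 3 genes elsewhere. By the GENCODE position the motif of Retnla lies inside the gene. Of 32851 windows of this length, 4.67% held the MAF motif. A motif of PU.1, GAGGAA, also searched on both strands and not overlapping the MAF motif in these 3 windows, was in the windows of Cbr2, Fcna, Mgl2, Mrc1 and Retnla and in 28.3% of all windows. A match describes the letters of the window and not a bound site, and these data hold no measure of binding.

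The libraries held 10857, 8707 and 7317 barcodes in non-lesional skin, at day 2 and at day 7, with totals between 102345327 and 138046172 UMIs (unique molecular identifiers, 1 per captured RNA molecule). Filtering left 9354 non-lesional, 7339 day 2 and 4714 day 7 cells. Libraries shared between 14 and 24 barcodes a pair. The class of monocyte- or macrophage-like cells, named from 15 other macrophage genes, had 69 cells in non-lesional skin, 361 at day 2 and 317 at day 7, with medians of 4514, 1845 and 5734 UMIs per cell. In each library all 15 of those genes were found in the class, at a sum of 41335, 3382 and 12157 CPM (UMIs per 1000000 UMIs of the class) in non-lesional skin, at day 2 and at day 7. Each had a higher level in the class than in the other kept cells, except Plac8 in the wound. Plac8 was at 132 CPM against 423 CPM at day 2 and 36.3 CPM against 225 CPM at day 7. By share of cells at day 2, Csf1r was found in 16.3% of the class against 23.8% of the other cells. Ly6c2 (2.22% against 2.48%) and Plac8 (13.9% against 57.4%) were also found less often. Different clusters held the class. The cluster led by Pf4 and Arg1 held 4 non-lesional, all 361 day 2 and 282 day 7 cells, and the cluster led by Retnla and Acp5 held 65 non-lesional, 0 day 2 and 35 day 7 cells. A comparison of the class between a wound and non-lesional skin is thus mostly a comparison of these clusters. Markers of other cell types moved with it: fibroblast markers summed to 1582, 4589 and 3679 CPM in the class, with 0 of 12 genes at 0 in each library, and neutrophil markers to 281, 1781 and 989 CPM, with 7, 1 and 1 of 12 at 0, in non-lesional skin, at day 2 and at day 7. Erythroid markers summed to 42.0, 2807 and 282 CPM, with 2, 1 and 0 of 6 at 0, and dendritic markers to 123, 108 and 74.9 CPM, with 6, 5 and 2 of 14 at 0. Their part in the results was not tested.

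Within monocyte- or macrophage-like cells the members split in a plain way. Arg1 had no UMI in the non-lesional cells and was found in most wound cells. Retnla, Mrc1, Mgl2 and the 5 resident genes ran high in the non-lesional cells and were low or without a UMI in the wound. Chil3 was sparse in all 3 libraries.

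**Figure D1:**
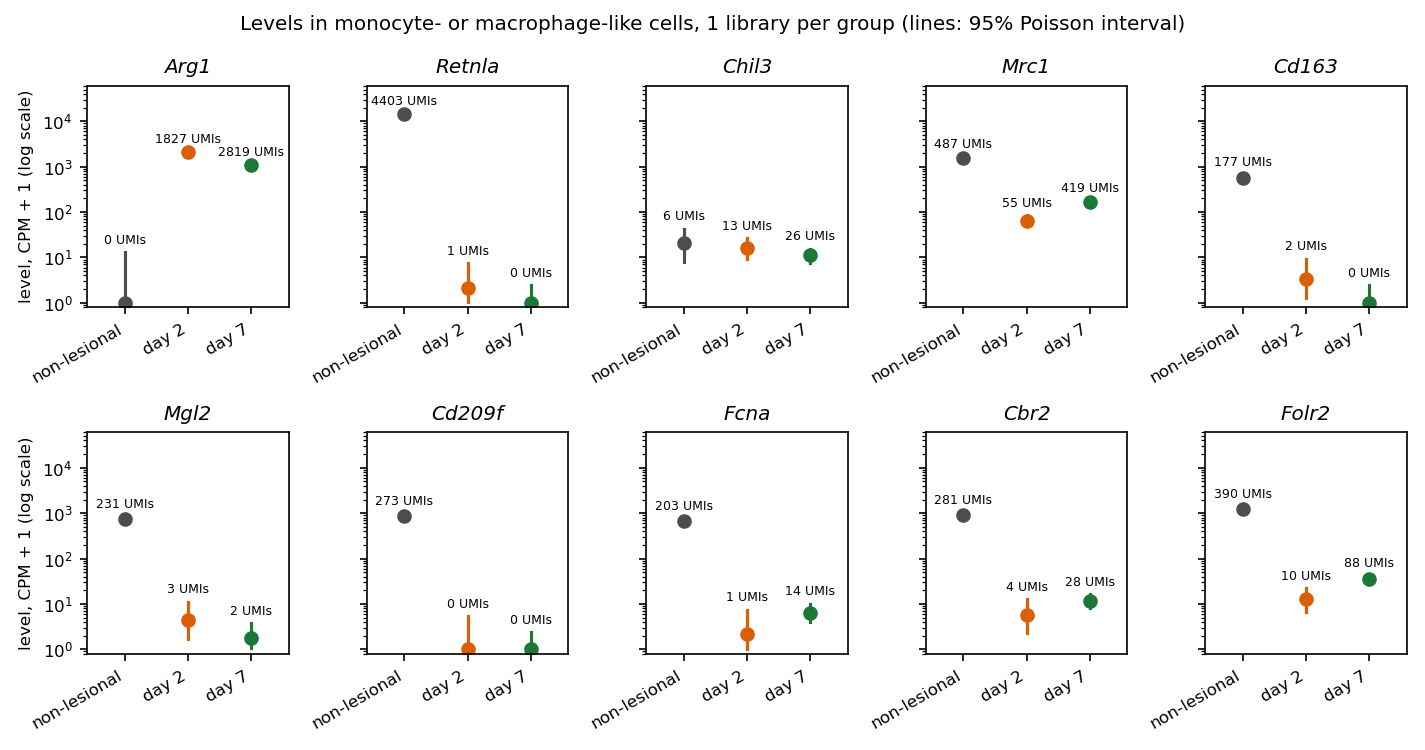
Level of each member in monocyte- or macrophage-like cells of non-lesional skin, day 2 and day 7 (1 library each), as CPM + 1 on a log axis; points are the summed level and lines the 95% Poisson interval. Arg1 stands at 0 in non-lesional skin and reaches 2131 and 1089 CPM at day 2 and day 7, while Retnla has 14214 CPM in non-lesional cells, 1.17 CPM at day 2 and 0 at day 7.

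Set against non-lesional skin, 1 of the 10 members was at least 2-fold higher at day 2, on the scale of log2(CPM + 5), against 15.0% of the 7738 measured genes. Another 8 of the 10 passed the same limit downwards, against 18.9% of the measured genes, and the median log2 difference of the members was -6.38, against -0.15 over all measured genes. A gene counted as measured with at least 10 UMIs over both sums, and all 10 members were measured in that pair and in the next. Day 7 set against non-lesional skin gave 1 higher member, against 14.9% of 9827 genes, and 8 lower ones, against 11.5%. The median log2 difference was -5.92 for the members and 0.05 for all measured genes. The single higher gene was Arg1 and the 1 member past neither limit was Chil3 in both pairs. The wound times share the non-lesional library, so these counts are not independent of each other.

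Arg1 (ENSMUSG00000019987, chr10:24915221-24927484, - strand, GRCm38) encodes arginase, which splits arginine into ornithine and urea. It had 1827 UMIs in the class at day 2 and 2819 at day 7, against 0 in the 69 non-lesional cells. The levels were 2131 CPM at day 2 (2035 to 2231) and 1089 CPM at day 7 (1049 to 1130). A UMI of Arg1 was found in 73.7% of day 2 cells (68.8 to 78.2) and 60.9% of day 7 cells (55.3 to 66.3), against 0 of 69 non-lesional cells, which allows, at 3 cells of the total, a share of cells with a UMI of up to 4.35%. The macrophage-like class held 81.7% of all Arg1 UMIs of the day 2 library and 88.0% of those of the day 7 library. Against a floor of 3 UMIs in the non-lesional class, Arg1 was at least 220-fold higher at day 2 and at least 112-fold higher at day 7. The share in fibroblast-like cells, which should hold little Arg1, was 4.58% at day 2 and 4.70% at day 7, at medians of 26163 and 26585 UMIs per cell.

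Not every wound cell carried Arg1 equally. The highest cell had 56 UMIs at day 2 and 131 at day 7, and the highest 10% of cells held 44.7% of the class's Arg1 at day 2 and 59.6% at day 7. Thinning to 1000 UMIs per cell left out shallower cells and kept 276 of 361 day 2 cells, 294 of 317 day 7 cells and 64 of 69 non-lesional cells. Among the cells kept, 42.9% at day 7 and 69.9% at day 2 had a UMI of Arg1. The summed level at day 7 was 1.96-fold lower than at day 2 (1.84 to 2.08), a log2 difference of -0.97, just inside the 2-fold limit. That difference was past the limit at -1.07 under TMM factors, -1.17 under median-of-ratios factors and -1.20 with doublets kept. It was -0.62 with thinned cells, and where the class was drawn otherwise it was as small as -0.42 with a class given to each cell, -0.16 with each library clustered alone and -0.02 with macrophage- and dendritic-like cells together, so the size of the drop depends on which cells are counted.

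Retnla (ENSMUSG00000061100, chr16:48842551-48844461, + strand) encodes a small secreted protein of the resistin family. In the class it had 1 UMI at day 2 and 0 at day 7, against 4403 UMIs in non-lesional cells. The non-lesional level was 14214 CPM (13797 to 14640), the highest of any member in any class. At day 7 Retnla was at least 12268-fold lower, against a floor of 3 UMIs, and at day 2 the ratio of non-lesional to wound was 12185, with an interval of 2186 to 481381 that rests on the 1 UMI. Only part of the non-lesional class carried it: 52.2% of cells had a UMI (39.8 to 64.4), those cells had a median of 99 UMIs, and the highest had 522. The 7 highest cells carried 51.6% of all Retnla of the class, and the class 96.7% of all Retnla of the library. Fibroblast-like cells of the same library had a UMI in 1.04% of cells at a median of 9963 UMIs, against 4514 in the macrophage-like cells.

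Chil3 (ENSMUSG00000040809, chr3:106147554-106167564, - strand) encodes a secreted lectin related to chitinases, known as Ym1. It had 13 UMIs at day 2 and 26 at day 7, against 6 in non-lesional cells, or 15.2 and 10.04 CPM against 19.4 CPM. The interval of the ratio held 1 at both times, 0.278 to 2.51 at day 2 and 0.209 to 1.54 at day 7, so no difference was detectable at this depth. Of the 26 UMIs at day 7, 14 came from 1 cell. The near-identical paralog Chil4 had 0 UMIs in every library, and reads that fit both genes may not be counted for either. All 6 non-lesional UMIs lay in 3 cells of the cluster led by Acp5. Without that cluster, an alternative chosen after seeing the data, the log2 difference of Chil3 had the other sign: it was 2.01 at day 2 and 1.81 at day 7, each against non-lesional skin, where the whole class gave -0.27 and -0.70. The non-lesional side then had 0 UMIs, so these sizes rest on the pseudocount of 5 CPM. In the 44 non-lesional cells led by Retnla and C1qa the floor of 3 UMIs is 14.3 CPM. Wound cells led by Pf4 and Arg1 had 15.2 CPM at day 2 and 12.5 CPM at day 7, so no difference was detectable there.

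Mrc1 (ENSMUSG00000026712, chr2:14229392-14332057, + strand) encodes the macrophage mannose receptor. Its level was 64.2 CPM at day 2 and 162 CPM at day 7, against 1572 CPM in non-lesional cells. The share of cells with a UMI was 10.5% at day 2 (7.56 to 14.2) and 35.0% at day 7 (29.8 to 40.5), against 81.2% in non-lesional cells (69.9 to 89.6). Mrc1 was 24.5-fold lower at day 2 (18.5 to 33.0) and 9.72-fold lower at day 7 (8.51 to 11.1). It was the least reduced of the 8 members that were lower. Among the cells kept by thinning to 1000 UMIs the shares were 5.43% of 276 at day 2 and 11.9% of 294 at day 7, against 70.3% of 64 in non-lesional skin, so the order of the libraries held at equal depth. Fibroblast-like cells stood at 0.542% at day 2 and 2.17% at day 7, against 0.634% in non-lesional skin.

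Mgl2 (ENSMUSG00000040950, chr11:70130329-70137550, + strand) encodes a lectin that binds galactose-type sugars. In the class it had 3 UMIs at day 2 and 2 at day 7, against 231 in non-lesional cells, or 3.50 and 0.772 CPM against 746 CPM. The ratio of non-lesional to wound was 213 at day 2 (72.0 to 1041) and 965 at day 7 (264 to 8019). Its close paralog Clec10a, which lies in the same family, moved likewise, with 15.2 CPM at day 2 and 10.04 CPM at day 7, against 833 CPM in non-lesional cells. Clec10a was 54.9-fold lower at day 2 (31.6 to 104.6) and 82.9-fold lower at day 7 (55.3 to 129). Reads that fit both genes of the pair may not be counted for either.

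The 5 resident genes were the most uniform group. Cd163 (ENSMUSG00000008845, chr6:124304656-124330527, + strand), the scavenger receptor for haemoglobin bound to haptoglobin, had 2 UMIs at day 2 and 0 at day 7, against 177 in non-lesional cells (571 CPM). At day 7 it was at least 493-fold lower against the floor. Cd209f (ENSMUSG00000051906, chr8:4102787-4105835, - strand), a C-type lectin of the family of DC-SIGN, had 0 UMIs at both wound times, against 273 in non-lesional cells (881 CPM), at least 252-fold lower at day 2 and at least 761-fold lower at day 7. Both genes therefore left no or next to no UMIs in the wound class, where 0 cells allow, at 3 cells of the total, a share of cells with a UMI of up to 0.831% at day 2 and 0.946% at day 7. The paralog Cd209a, a dendritic marker in the list used for naming classes, had 0 CPM at day 2 and 1.54 CPM at day 7, against 51.7 CPM in non-lesional macrophage-like cells.

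Fcna, Cbr2 and Folr2 kept a few UMIs in the wound. Fcna (ENSMUSG00000026938, chr2:25624666-25628030, - strand) encodes ficolin A, a secreted lectin that starts the lectin pathway of complement, and had 1.17 CPM at day 2 and 5.41 CPM at day 7, against 655 CPM in non-lesional cells. Cbr2 (ENSMUSG00000025150, chr11:120729489-120732114, - strand), a carbonyl reductase, had 4.67 CPM at day 2 and 10.8 CPM at day 7, against 907 CPM. For Folr2 (ENSMUSG00000032725, chr7:101839988-101857194, - strand), which encodes the folate receptor beta, the levels were 11.7 CPM at day 2 and 34.0 CPM at day 7, against 1259 CPM. Among these 3 genes Folr2 was the least reduced, 108-fold lower at day 2 (58.1 to 227) and 37.0-fold lower at day 7 (29.3 to 47.2). Cbr2 was 194-fold lower at day 2 (75.1 to 718) and 83.9-fold lower at day 7 (56.8 to 129), and Fcna was 121-fold lower at day 7 (70.6 to 226). A UMI of Folr2 was found in 2.77% of day 2 cells and 11.7% of day 7 cells, against 65.2% of non-lesional cells, where Cbr2 had the same share. In fibroblast-like cells the share with Folr2 was 0.0246% at day 2 and 0.177% at day 7, against 0.168% in non-lesional skin.

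**Figure D2:**
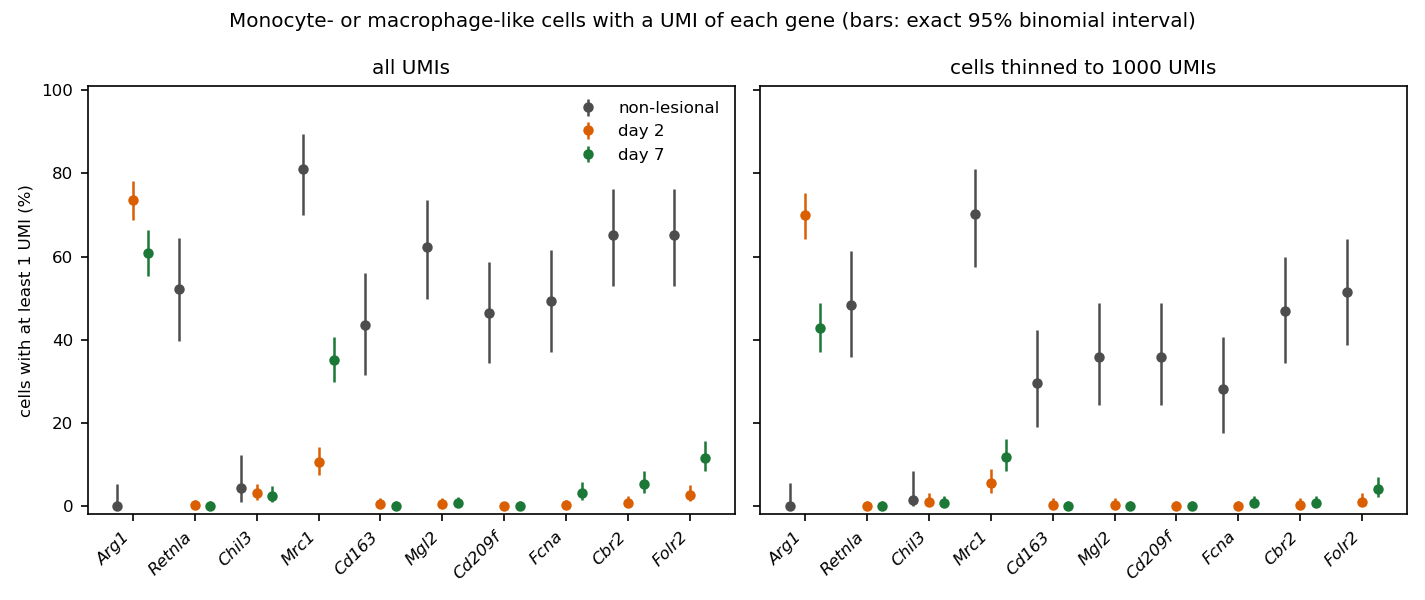
Share of monocyte- or macrophage-like cells with at least 1 UMI of each member, in percent, with all UMIs and, leaving out cells with fewer, thinned to 1000 UMIs per cell; points are libraries and bars the exact 95% binomial interval. Arg1 was found in 73.7% and 60.9% of day 2 and day 7 cells and in 0 non-lesional cells, and after thinning the shares were 69.9% and 42.9% of the 276 and 294 cells kept.

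Between the wound times only 6 of the 10 members were measured, since Retnla, Cd163, Mgl2 and Cd209f had fewer than 10 UMIs over both. Mrc1 and Folr2 were at least 2-fold higher at day 7 than at day 2, where 8.86% of 10084 genes were, and 0 members were at least 2-fold lower, where 3.88% were. Mrc1 was 2.52-fold higher (1.90 to 3.40) and Folr2 2.91-fold higher (1.51 to 6.29), on 419 against 55 UMIs and 88 against 10 UMIs at day 7 against day 2. For Cbr2 the ratio was 2.32 (0.811 to 9.09) and for Fcna 4.64 (0.705 to 196), so for both the interval held 1. The day 7 cells were deeper than the day 2 cells, at 5734 against 1845 UMIs per cell. With doublets kept, Folr2 had a log2 difference of 0.96, under the limit, against 1.23 as reported.

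The classes could be compared within clusters at a finer resolution of 2, at which the non-lesional class fell mainly into 44 cells led by Retnla and C1qa and 21 cells led by Acp5 and Atp6v0d2, genes of osteoclasts and their kin. The wound cells fell into a cluster led by Pf4 and Arg1, with 361 cells at day 2 and 282 at day 7, and 34 day 7 cells in the cluster led by Acp5. The remaining day 7 cell, with 1709 UMIs, lay in the cluster led by Retnla and C1qa. Because these clusters were drawn on 2000 variable genes without the members, the members' levels are given as a description. In the non-lesional cells led by Retnla and C1qa, Retnla reached 19771 CPM, Mrc1 2140 CPM, Folr2 1843 CPM, Cbr2 1313 CPM and Cd209f 1304 CPM, and Arg1 and Chil3 were at 0 UMIs. Mrc1 and Cbr2 were each found in 43 of these 44 cells, Folr2 in 41 and Retnla in 32. All 273 Cd209f UMIs and all 203 Fcna UMIs of the non-lesional class came from this cluster.

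The cells led by Acp5 held few UMIs of the resident genes in both libraries that had such cells. In non-lesional skin they had 263 UMIs of Retnla in 4 of 21 cells, 30 UMIs of Mrc1 in 11 cells and 26 of Mgl2 in 4 cells, with 0 of Cd209f and Fcna, 1 of Cbr2, 3 of Cd163 in 1 cell and 3 of Folr2 in 3 cells. A single cell carried 189 of the 263 Retnla UMIs and a single cell 21 of the 26 Mgl2 UMIs. At day 7 the 34 cells, with a median of 17602 UMIs, held 3 UMIs of Mrc1, 2 of Fcna and 0 of Retnla, Mgl2, Cd163, Cd209f, Cbr2 and Folr2. Mrc1 was 66.0-fold lower at day 7 than in non-lesional skin within the cluster (20.5 to 338). Arg1 had 28 UMIs in 10 of 34 day 7 cells (47.7 CPM) against 0 UMIs in the 21 non-lesional cells, which is at least 1.41-fold higher against a floor of 3 UMIs. The non-lesional cells were shallower, at a median of 4497 UMIs, and after thinning Arg1 was found in 2 of 32 day 7 cells and 0 of 19 non-lesional cells, so no difference of Arg1 in the share of cells was detectable within the cluster.

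Leaving the Acp5-led cells aside, the day 7 and day 2 cells of the cluster led by Pf4 and Arg1 differed in the same direction as the whole class. Arg1 stood at 1395 CPM at day 7 and 2131 CPM at day 2, 1.53-fold lower at day 7 (1.44 to 1.62). Mrc1 was 3.23-fold higher at day 7 than at day 2 (2.44 to 4.37), Folr2 3.77-fold (1.96 to 8.14) and Cbr2 3.00-fold (1.05 to 11.8). The lower bound of Cbr2 lies close to 1 and rests on 28 and 4 UMIs at day 7 and day 2.

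**Figure D3:**
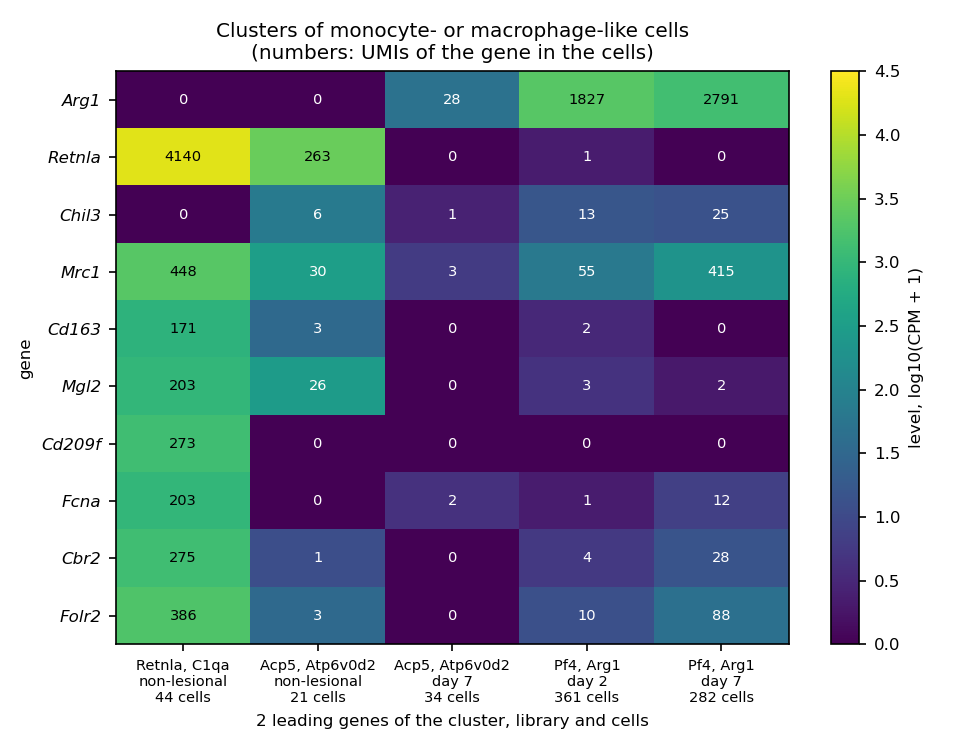
Levels of the members in the clusters of monocyte- or macrophage-like cells, as log10(CPM + 1), with the cluster's leading genes, the library and the number of cells on the x axis, the genes on the y axis, and the UMIs written in each field. The resident genes are filled in the 44 non-lesional cells led by Retnla and C1qa and nearly empty in the cells led by Acp5 and in the wound cells led by Pf4 and Arg1.

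The members were next counted cell by cell. Of the 69 non-lesional cells, 18 had a UMI of all 5 resident genes, 12 of 4, 13 of 3, 2 of 2, 5 of 1 and 19 of none. Most cells had either 3 or more of them or none. At day 2, 346 of 361 cells had none of the 5, 14 had 1 and 1 had 2. At day 7, 266 of 317 had none, 40 had 1, 9 had 2 and 2 had 3. No wound cell had 4 or 5 of them.

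**Figure D4:**
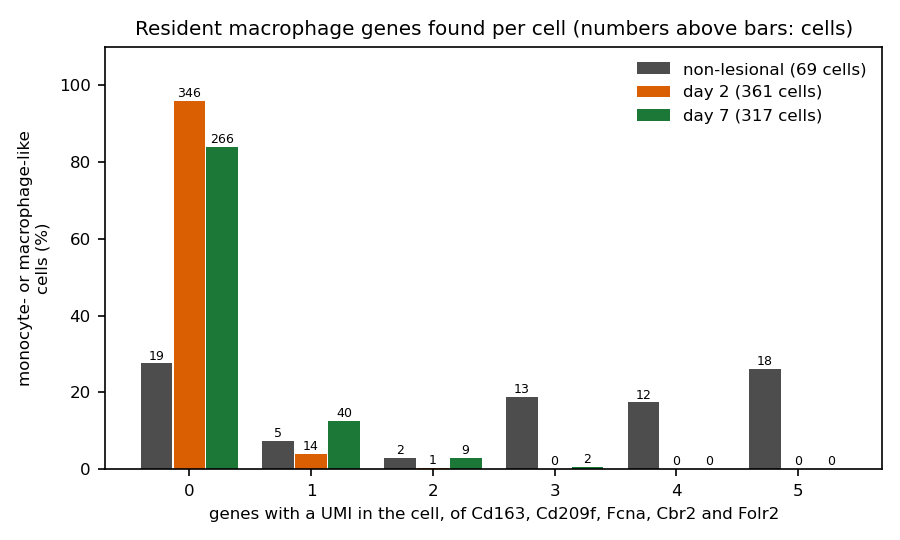
Share of monocyte- or macrophage-like cells, in percent, by how many of Cd163, Cd209f, Fcna, Cbr2 and Folr2 had a UMI in the cell; bars are libraries and the numbers above them cells. Of the 69 non-lesional cells 18 had all 5, and of the 361 day 2 and 317 day 7 cells 346 and 266 had none.

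The resident genes ran with Mrc1, Mgl2 and Retnla in the same non-lesional cells. In the 45 non-lesional cells with at least 2 of the 5, Mrc1 was found in 97.8%, Mgl2 in 84.4% and Retnla in 71.1%. Of the 24 cells with fewer, Mrc1 was found in 12 cells, Mgl2 in 20.8% and Retnla in 16.7%, at nearly the same depth (medians of 4514 and 4690 UMIs in cells with at least 2 and with fewer). Mrc1 was found in 30 of 30 cells with Cd163, 31 of 32 with Cd209f and 34 of 36 with Retnla. Retnla was found in 28 of 32 cells with Cd209f, and Cbr2 in 41 of 45 cells with Folr2. Chil3 had a UMI in only 3 of the 69 non-lesional cells, none of them among the 56 with Mrc1. That is too few to show whether it departs from this pattern. Arg1 had no UMI in these cells. These shares describe cells of 1 library.

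Arg1 and Mrc1 were not exclusive in the wound. At day 7, Mrc1 was found in 35.2% of cells with Arg1 (68 of 193) and in 34.7% of cells without it (43 of 124). At day 2, Mrc1 was found in 12.0% of cells with Arg1 (32 of 266) and 6.32% of cells without it (6 of 95). Thinned to 1000 UMIs per cell these shares were 11.1% and 12.5% with and without Arg1 at day 7, and 5.70% and 4.82% at day 2, and the intervals overlapped.

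Folr2 did run with Mrc1 at day 7. It was found in 27.9% of cells with Mrc1 (31 of 111) and in 2.91% of cells without it (6 of 206), and Cbr2 in 13.5% and 0.971% of the same cells. Thinned, Folr2 was found in 11.4% of cells with Mrc1 (3.20 to 26.7) and 3.09% without it (1.34 to 6.00), and these intervals overlap. The 11 day 7 cells with at least 2 resident genes had a median of 23796 UMIs, against 5703 in the 306 with fewer, so depth moved with the finding and its part was not tested. Of those 11 cells 7 had Arg1 (63.6%), against 60.8% of the 306.

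Other classes held some members too. The plot of levels by class shows that Arg1, Retnla, Chil3, Cd163, Cd209f, Fcna, Cbr2 and Folr2 had their highest level in macrophage-like cells of 1 library, and so did Mrc1, while Mgl2 did not. Mgl2 was highest in non-lesional dendritic-like cells, with 983 CPM (910 to 1060), above the 746 CPM of the macrophage-like cells there (653 to 848). In dendritic-like cells it was at 41.8 CPM at day 2 and 48.4 CPM at day 7, against that 983 CPM, 23.5-fold lower at day 2 (19.0 to 29.4) and 20.3-fold lower at day 7 (16.6 to 24.9). Of the 5 members measured in these cells, 1 was past 2-fold upwards at both day 2 and day 7 (Arg1), against 14.5% and 11.6% of all measured genes, and 4 downwards (Retnla, Mrc1, Cd163 and Mgl2), against 6.52% and 4.18%. Of the Arg1 UMIs of the class, 13 of 26 at day 2 and 26 of 31 at day 7 came from 1 cell, and all 25 Retnla UMIs of non-lesional skin came from 1 cell, so the calls of Arg1 at day 7 and of Retnla rest on single cells. Between day 7 and day 2, 0 of 4 measured members passed 2-fold in either direction, against 2.83% of genes upwards and 1.29% downwards. The dendritic-like class held 89.0% of all Mgl2 UMIs at day 2 and 93.5% at day 7, against 71.1% in non-lesional skin.

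The cluster led by Cd74 and H2-Ab1 held 376 of 544 dendritic-like cells at day 2 and 227 of 327 at day 7, against 98 of 99 in non-lesional skin, and the rest were mainly led by Ccl22 and Ccr7. Within it Mgl2 had 39.9 CPM at day 2 and 59.0 CPM at day 7, against 998 CPM in non-lesional cells. Mrc1 and Cd163 showed the same direction in the dendritic-like class, with 14.7 and 13.5 CPM of Mrc1 at day 2 and day 7 against 171 CPM in non-lesional skin, and 3.88 and 0.421 CPM of Cd163 against 98.0 CPM. As a share of the level in macrophage-like cells of the same library, non-lesional dendritic-like cells held 10.9% for Mrc1 and 17.1% for Cd163, against a median of 4.01% over the 15 macrophage markers (0 to 83.1). Cd209f and Cbr2 had 0 UMIs in the 99 cells and Folr2 had 1. The boundary between the 2 classes in non-lesional skin moved with the method. Dendritic-like cells numbered 99 as reported, 57 with a class given to each cell and 120 with the members allowed among the variable genes. With each library clustered alone there were 0. Macrophage-like cells numbered 69, 96, 47 and 44 in the same order. The part of this boundary in the dendritic-like levels of Mgl2, Mrc1 and Cd163 was not tested.

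The lymphatic endothelial-like class held Mrc1. Its level was 237 CPM in 50 cells at day 7 (200 to 278) against 41.3 CPM in 46 cells of non-lesional skin (24.5 to 65.2), and a UMI was found in 48.0% of day 7 cells and 21.7% of non-lesional cells. At day 7 that exceeded the 162 CPM of the macrophage-like cells. The day 7 sum of 147 UMIs includes 1 cell with 40, and Mgl2, the other lectin receptor, had 0 UMIs in the 50 cells of day 7 and 1 in the 46 of non-lesional skin.

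Cbr2 and Arg1 also had a place in the epidermis. In keratinocyte-like cells Cbr2 was at 24.5 CPM at day 7 and 11.9 CPM in non-lesional skin, where it was found in 13.5% of 1521 cells and where the class held 56.5% of all Cbr2 UMIs of the library. In non-lesional skin it was unevenly spread, at 28.3 CPM in the 539 cells led by Krt5 and Krt15, genes of basal keratinocytes, and 43.6 CPM in the 71 cells led by Lhx2 and Elovl6, against 2.71 CPM in the 416 led by Mt4 and Krt1 and 0 in the 185 led by Lor and Asprv1. At day 7, 55 of the 60 Cbr2 UMIs of the class lay in 39 cells led by Lhx2 and Elovl6 (82.9 CPM), 15 of them in 1 cell. The 23 day 7 cells led by Krt5 and Krt15 were lower than in non-lesional skin, at 5.77 CPM (1.57 to 14.8) on 4 UMIs. The class level thus does not show a rise within each kind of keratinocyte. Arg1 had the opposite place. All of its 361 keratinocyte UMIs in non-lesional skin lay in the cells led by Lor and Asprv1, genes of the outer, cornifying layer, at 48.3 CPM (43.4 to 53.5) in 28.1% of the 185 cells (21.8 to 35.2). Those 361 UMIs were 88.0% of all Arg1 of the non-lesional library. At day 7 the class had 120 UMIs of Arg1, nearly all of which lay in 1 cell.

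A small number of T, NK or innate lymphoid-like cells held Arg1. The level was 11.7 CPM in non-lesional skin, 110 CPM at day 2 (74.3 to 157) and 10.2 CPM at day 7. In the cells led by Il17a and Cxcr6, 12 of 216 had a UMI in non-lesional skin, 10 of 130 at day 2 and 9 of 332 at day 7. The day 2 sum was 30 UMIs, of which 11 came from 1 cell.

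**Figure D5:**
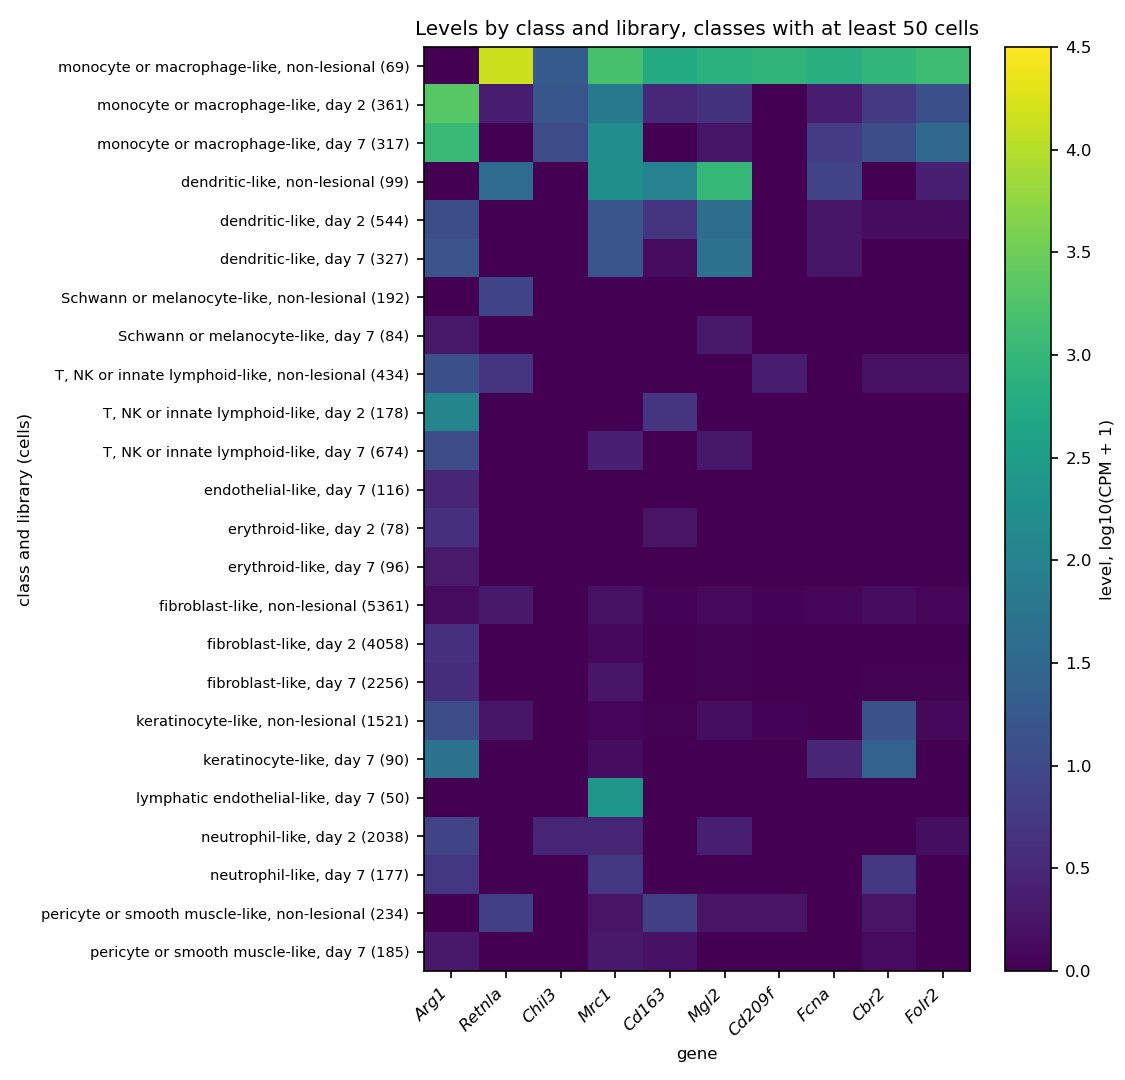
Levels of the members as log10(CPM + 1) in each class and library with at least 50 cells, classes down the page and genes across. Arg1 is highest in wound macrophage-like cells (2131 and 1089 CPM at day 2 and day 7), Mgl2 in non-lesional dendritic-like cells (983 CPM), and Mrc1 is also filled in day 7 lymphatic endothelial-like cells (237 CPM).

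Across 26 sums of a class in a library, the genes most like each member by Pearson's r of log2(CPM + 5) were as follows. These points share 3 libraries and differ in depth, so r is a description. For Arg1 they were Ppbp (0.87), F7 (0.84) and Atf1 (0.83). For Retnla they were Fcna (0.97), Cd209g (0.96) and Cd209f (0.96), and for Cd209f the nearest was Cd209g (0.997). Mrc1 was nearest to Clec4a3 (0.86), Clec4a2 (0.83) and Clec4a1 (0.82), lectin receptors of myeloid cells, and Folr2 to C1qc (0.96), C1qb (0.95) and Fcna (0.95). Mgl2 was nearest to Cd209d (0.98), Clec4b1 (0.97) and Clec10a (0.93), Cd163 to Bank1 (0.98), Cd209b (0.98) and Lyz1 (0.96), Chil3 to C3ar1 (0.98), Ms4a7 (0.97) and F13a1 (0.97), and Cbr2 to Fcna (0.92), Folr2 (0.90) and Cd209f (0.90). Between Arg1 and the other members r lay between -0.19 (Retnla) and 0.57 (Chil3). Among Retnla, Fcna, Cbr2 and Cd209f, r rests mostly on the sum of non-lesional macrophage-like cells, at 14214, 655, 907 and 881 CPM. Their next highest sums were at 36.6, 7.31, 24.5 and 1.24 CPM in the same order.

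Over all kept cells of a library, without classes, the counts depended on the pseudocount. Day 2 set against non-lesional skin had 1 higher member, against 7.58% of genes, and 3 lower ones, against 8.58%. For day 7 the counts were 1 higher, against 5.95% of genes, and 2 lower, against 5.20%. With a pseudocount of 1 CPM in place of 5 CPM the lower members were 8 at day 2 and 7 at day 7. The higher member was Arg1, at 18.9 CPM at day 2 and 37.4 CPM at day 7 against 3.81 CPM in non-lesional skin. Retnla was at 0.0084 CPM at day 2 and 0 at day 7, against 42.3 CPM. Between day 7 and day 2, 1 member was higher, against 3.95% of genes, and 0 were lower, against 1.37%. The higher one was Mrc1, at 7.77 CPM at day 7 and 0.996 CPM at day 2. In such sums, fewer cells of a type and less RNA per cell cannot be told apart.

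The 8 companion lists place the members among other macrophage genes of the same class. Their counts stand beside the shares over all measured genes of the class. Against non-lesional skin, 15.0% were at least 2-fold higher and 18.9% lower at day 2, and 14.9% higher and 11.5% lower at day 7. At day 7 against day 2, 8.86% were higher and 3.88% lower. Whether a list departs from these shares was not tested. In the list of 29 other resident genes, 20 of 25 measured were at least 2-fold lower at day 2 than in non-lesional skin and 2 higher, with a median log2 difference of -3.43, and 19 of 26 were lower and 1 higher at day 7, with a median of -2.90. Lyve1, a hyaluronan receptor, had 0 CPM at day 2 and 1.16 CPM at day 7, against 552 CPM in non-lesional cells, at least 158-fold lower at day 2. Ccl8, a chemokine, had 51.3 CPM at day 2 and 45.6 CPM at day 7, against 4045 CPM. Cd209g, next of kin to Cd209f, had 0 CPM at both times, against 333 CPM. At day 7 against day 2, 4 of 18 were higher and 1 lower, led by Mertk, a receptor for dying cells, at 39.8 CPM at day 7 and 1.17 CPM at day 2, and Sepp1, selenoprotein P, at 440 CPM at day 7 and 72.3 CPM at day 2. The 5 resident members were thus lower in the wound alongside most of this list.

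Among inflammatory macrophage genes the direction was the reverse. There 16 of 21 measured genes were higher at day 2 than in non-lesional skin and 3 lower, with a median log2 difference of 3.37, and 12 of 19 were higher and 4 lower at day 7, with a median of 2.41. Irg1, which makes itaconate, was at 1584 CPM at day 2 and 512 CPM at day 7, against 3.23 CPM in non-lesional cells. Tnf was at 9692 CPM at day 2 and 4125 CPM at day 7, against 223 CPM. From this list 0 of 21 were higher and 12 lower at day 7 than at day 2, led by Saa3, an acute-phase protein, at 38.6 CPM at day 7 and 1036 CPM at day 2. Saa3 was also among the leading genes of a fibroblast-like cluster with 2083 day 2 cells, and Irg1 of the neutrophil-like cluster with 2038. Tnf was among those of the class's own cluster led by Pf4 and Arg1. The part of RNA from other cells in these levels was not tested. Monocyte genes were mixed: 5 of 12 were higher and 6 lower at day 2, and 4 of 13 higher and 7 lower at day 7, each against non-lesional skin, and 1 of 12 was higher and 6 lower at day 7 against day 2. Thbs1, a matricellular protein, was at 3381 CPM at day 2 and 852 CPM at day 7, against 64.6 CPM in non-lesional cells, while Ccr2, the monocyte chemokine receptor, was at 33.8 and 33.6 CPM at day 2 and day 7, against 381 CPM.

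In the list of arginine and polyamine metabolism, 8 of 14 measured genes were higher at day 2 than in non-lesional skin and 1 lower, and 7 of 15 higher and 1 lower at day 7, with medians of 1.11 and 0.95. Slc7a2, a carrier of arginine into the cell, had 145 CPM at day 2 and 21.2 CPM at day 7, against 0 in non-lesional cells, at least 14.9-fold higher at day 2. Arg2, the mitochondrial arginase, had 157 CPM at day 2 and 86.1 CPM at day 7, against 3.23 CPM. Nos2, the nitric oxide synthase that uses the same arginine, had 46.7 CPM at day 2 and 34.0 CPM at day 7, against 0, at least 4.82-fold higher at day 2 and at least 3.51-fold at day 7. Odc1, which turns ornithine into putrescine, had 460 CPM at day 2 and 636 CPM at day 7, against 87.2 CPM. In the sums of this class Arg1 was thus higher together with genes on both sides of arginine use. Nos2 was also among the leading genes of a fibroblast-like cluster with 1953 day 2 cells, and fibroblast markers summed to 4589 CPM in the macrophage-like class at day 2. The part of fibroblast RNA in the level of Nos2 was not tested. Day 7 and day 2 differed past the limit in 1 of 15, Slc7a2, which was lower at day 7.

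The list of IL4 and IL13 signalling had 0 of 12 measured genes higher and 3 lower at day 2 than in non-lesional skin, with a median of -0.28, and 0 of 14 higher and 3 lower at day 7, with a median of -0.64. Over all measured genes 15.0% were higher and 18.9% lower at day 2, and 14.9% and 11.5% at day 7. Counts this small do not set the list apart from those shares. Batf3, a transcription factor of the AP-1 family, had 1.17 CPM at day 2 and 5.02 CPM at day 7, against 77.5 CPM in non-lesional cells. Klf4 and Irf4, transcription factors of alternative activation, had 121 and 8.17 CPM at day 2 and 118 and 5.79 CPM at day 7, against 688 and 42.0 CPM in non-lesional cells. The coactivator Ppargc1b was the 1 of 14 that was higher at day 7 than at day 2, and 0 were lower. Of the other alternative activation genes, 6 of 16 were higher and 4 lower at day 2, and 6 of 16 higher and 5 lower at day 7, each against non-lesional skin, with medians of 0.15 and 0.68 and with 3 of 18 higher and 3 lower at day 7 against day 2. Mmp12, the macrophage elastase, was at 335 CPM at day 2 and 437 CPM at day 7, against 12.9 CPM, whereas Ccl24, an eosinophil chemokine, was at 50.2 CPM at day 2 and 3.09 CPM at day 7, against 471 CPM. Tgm2, a transglutaminase, was at 202 CPM at day 2 and 242 CPM at day 7, against 6.46 CPM.

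Of 18 measured scavenger and lectin receptors, 5 were higher and 11 lower at day 2 than in non-lesional skin, and of 20, 6 were higher and 8 lower at day 7. Cd209d had 0 CPM at both wound times, against 165 CPM in non-lesional cells, while Clec4d, a lectin of inflammatory myeloid cells, had 720 CPM at day 2 and 527 CPM at day 7, against 19.4 CPM. Clec4d is also 1 of the 12 neutrophil markers, which summed in this class to 1781 CPM at day 2 and 989 CPM at day 7, against 281 CPM. The part of neutrophil RNA in its level was not tested. Of 16 measured in both wound libraries, 3 were higher and 2 lower at day 7 than at day 2, led by Clec12a, an inhibitory receptor, at 105 CPM at day 7 and 12.8 CPM at day 2. In the list of folate and carbonyl metabolism, kin of Folr2 and Cbr2 by function, 1 of 5 was higher and 2 lower at day 2, 4 of 12 higher and 3 lower at day 7, each against non-lesional skin, and 1 of 12 higher and 0 lower at day 7 against day 2. Mthfd2, a mitochondrial folate enzyme, had 110 CPM at day 2 and 63.7 CPM at day 7, against 25.8 CPM, and Dcxr, a carbonyl reductase, 4.67 and 19.3 CPM at day 2 and day 7, against 48.4 CPM. Over all measured genes the median log2 difference was -0.15 at day 2 and 0.05 at day 7 against non-lesional skin, and 0.16 at day 7 against day 2.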

How the data were processed

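Single cells of non-lesional skin and of wounds at day 2 and day 7 were measured in 1 library each. The authors deposited unnormalised UMI counts for each gene and barcode, in tables written by Cell Ranger 5.0.0 per the file headers. The submitters' processing notes name Cell Ranger 3.0.2, Seurat 3.0 and mm10, a difference that was not resolved. Of 27998 gene IDs 27645 were found in GENCODE M21 on GRCm38, which gave positions.

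Barcodes were kept with at least 200 genes and at most 10% mitochondrial UMIs, and the top 0.8% per 1000 barcodes by Scrublet score (scanpy 1.11.5) were removed as doublets, 943, 606 and 428 in non-lesional skin, day 2 and day 7. The limits on genes removed 192, 390 and 543 barcodes and that on mitochondrial UMIs 368, 372 and 1632. Counts were scaled to 10000 per cell and logged, and 2000 variable genes without the members, 30 principal components, 20 neighbours and Leiden clustering at resolution 1 gave 36 clusters, named "-like" from 15 marker lists (a score of at least 0.5 and 3 markers in at least 10% of cells). Other clusters stayed unnamed. Rebuilt names may differ from the study's.

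UMIs were summed per class and library as CPM, compared as log2(CPM + 5), with a minimum of 10 UMIs over both sums. Ratios carry exact conditional binomial intervals, shares Clopper-Pearson intervals and levels Poisson intervals, all at 95%, and a count of 0 was set to 3 for bounds. Named genes were all members, up to 4 genes of each of 8 companion lists with the largest difference per pair, the 3 most alike genes per member and the paralogs Chil4, Clec10a and Cd209a; of the list genes, examples are printed. Members and lists were chosen with earlier results of these data known. Genes of the lists that the files name otherwise were not analysed here. Alternatives were other scaling (TMM in edgeR 4.0.16), pseudocount, minimum, clustering, classes, doublets, cell filters and thinning to 1000 UMIs, which leaves out cells with fewer. The steps were tested on simulated sums of macrophage-like cells. Of genes without a true difference, 399 of 7470 passed 2-fold in either direction at day 2 and 480 of 9622 at day 7, each against non-lesional skin. At day 7 against day 2 it was 52 of 9850. Counting error alone thus adds to the shares given over all measured genes. The work used R 4.3.3, Python 3.11.15, scikit-learn 1.9.0, matplotlib 3.10.9, pandas 2.3.3, scipy 1.17.1, igraph 0.11.9, leidenalg 0.10.2, numpy 2.4.6 and anndata 0.12.19.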

Additional observations from a re-analysis of the deposited data

How the results depend on the processing

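No called difference changed sign under the alternatives run. Of the counts of members under them, all but 18 stayed within 1.5 times the reported count, and for log2 differences 385 moved by less than the counting error and 139 by more. Of the shares of cells 534 were counted as unchanged and 126 as moved. Those that moved included 67 with thinned cells and 38 with the members allowed among the variable genes.

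In monocyte- or macrophage-like cells at day 7 against day 2, 1 member was at least 2-fold lower, in place of 0, with TMM scaling, median-of-ratios scaling or doublets kept, and it was Arg1 each time. With a class given to each cell 1 was lower and with each library clustered alone 2 were, members with too few UMIs in the classes as reported. The count of higher members in that pair was 4 with a pseudocount of 1 CPM, which added Fcna and Cbr2, and 1 with doublets kept, in place of 2. Against non-lesional skin 2 members were higher at day 2 and 2 at day 7, in place of 1, with each library clustered alone, with the members allowed among the variable genes, or without the Acp5-led cluster, an alternative chosen after seeing the data. The added gene was Chil3 each time. Without the Acp5-led cluster its non-lesional side had 0 UMIs, so that call rests on the pseudocount.

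Over all kept cells the count of higher members at day 7 against day 2 was 0 in place of 1 with median-of-ratios scaling. The count of lower members at day 2 against non-lesional skin was 8 with a pseudocount of 1 CPM and 7 with thinned cells, in place of 3, and at day 7 it was 7 and 5, in place of 2. A pseudocount of 5 CPM hides folds of genes that lie at a few CPM in a whole library. In macrophage-like cells the median log2 difference over all measured genes, -0.15 at day 2 against non-lesional skin, came to 0.10 under TMM and 0.12 under median-of-ratios factors. At day 7 against non-lesional skin it was 0.05 as reported, 0.18 under TMM and 0.14 under median-of-ratios factors, and at day 7 against day 2 it was 0.16, 0.09 and 0.01 in the same order. The cause of the other moves was not tested.

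No paired analysis was possible because each group has 1 library. With 69 non-lesional macrophage-like cells and a median of 1845 UMIs per cell at day 2, a gene at 0 in the class can still lie at up to 9.68 CPM in non-lesional skin and 3.50 CPM at day 2.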
